A study of Mus musculus with 4 samples.

Results

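Foxp3 and Ikzf2, the genes of 2 transcription factors of regulatory T cells, were examined in mouse T-helper 2 (Th2) cells together with the genes annotated across their exons on the other DNA strand. The members were Foxp3, Ccdc22, Ikzf2 and Gm29114, 4 of the 50600 genes counted. Ccdc22 and Gm29114 were taken because they share exon bases with Foxp3 and Ikzf2 respectively. Applying that rule to the exons in the files gave 1 further gene, the noncoding Gm36995, which lies opposite Foxp3 and is described beside Ccdc22. The study is a single group of 4 libraries from Th2 primary cells of strain C57BL/6NJ, made by in vitro differentiation of CD4 T cells and, per the file headers, sorted at 72 h. The labels number them as biological replicates 1 to 4, each with its own biosample under 1 shared donor entry, and name no treatment, genotype change or control. Whether the biosamples came from separate animals is not stated, so the spread given here may be partly technical. All comparisons are therefore between genes within a library or between the replicates.

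Foxp3 is a forkhead factor of the FOXP family that directs the regulatory T cell programme, and it is normally silent or transient in other CD4 T cells. Ikzf2 encodes Helios, a zinc finger factor of the Ikaros family found in many regulatory T cells, where it supports a stable identity. Ccdc22 is a widely expressed subunit of the CCC complex, which works with COMMD proteins, the retriever complex and the WASH complex to return membrane proteins from endosomes to the cell surface. Gm29114 is a noncoding gene annotated as antisense. A gene-level count made with a strand setting gives the fragments on 1 strand of the exons, so each value below is an own-strand value, not a measure of mRNA level. Genes with an opposite exon are 8189 of the 50600 yet hold most of the counts in every library. Whether strand option 1 in the headers matches the strand that the library kit keeps is not stated in the sources used here and was not tested. If it does not, a value listed for a gene would be that of RNA from the other strand, and this limit applies to each level and rank given for Foxp3, Ikzf2 and the other genes.

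The total gene count was 1780682, 1857433, 1446040 and 1274431 fragments in replicates 1 to 4. A count of 0 in all 4 libraries allows up to 3 counts over the group, or 0.472 counts per 1000000 (CPM), counting error only. Genes with no exon opposite another gene held 16.4%, 8.54%, 9.14% and 20.1% of the counts, so replicates 1 and 4 stood apart from replicates 2 and 3. Of the labelled cell type's markers, 10 of 10 had counts, summing to 808, 437, 287 and 955 in replicates 1 to 4. Of the 10, 4 have an exon opposite another gene, which had more counts per kb of exon in all 4 libraries. The means were 5.51 for Cd3e against 3742 for Gm48719, and 5.04 for Il5 against 2938 for Gm12214. They were 12.1 for Gata3 against 1348 for Gm13256, and 17.1 for Il4ra against 2567 for Gm44876. Among all protein-coding genes with such an exon and a count in either gene, this held for 51.2%. Neither CD8 marker had a count, and 2 of 4 B cell markers and 2 of 5 myeloid markers had one. The B cell markers summed to 49, 56, 21 and 3 counts, with Ms4a1 at 0, and the myeloid markers to 732, 838, 694 and 542, nearly all of it from Csf1r, which lies opposite Hmgxb3. Lyz2, Itgam and Adgre1 had 0 counts. Itgam shares 3450 of its 5024 exon bases (68.7%) with Gm49368 on its own strand, and fragments that fit both go to neither gene.

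The positions of the shared bases differ between the 2 loci (coordinates are those of the count files, mm10). Foxp3 (ENSMUSG00000039521.12, chromosome X, 7579676 to 7595243, plus strand, 3989 exon bases) and Ccdc22 (ENSMUSG00000031143.4, chromosome X, 7593809 to 7605517, minus strand, 3427 exon bases) run towards each other and overlap at their 3′ ends. They share 590 bases in 4 segments, at 7593809 to 7594167, 7594530 to 7594604, 7594684 to 7594743 and 7594960 to 7595055. All 4 segments lie in the last exon of Foxp3 (7592900 to 7595243), after its stop codon, and so in its 3′ UTR. In Ccdc22, 342 of the 590 bases are coding and 248 are not. The shared bases make up 14.8% of the exon bases of Foxp3 and 17.2% of those of Ccdc22. Gm36995 (chromosome X, 7558602 to 7605381, minus strand) shares 373 bases with Foxp3 in 4 segments, all of them also within Ccdc22 exons.

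Ikzf2 (ENSMUSG00000025997.13, chromosome 1, 69531214 to 69687245, minus strand, 11613 exon bases) and Gm29114 (ENSMUSG00000101156.1, chromosome 1, 69513932 to 69547707, plus strand, 2508 exon bases) share far less. They have 144 bases in common, 1.24% of the exon bases of Ikzf2 and 5.74% of those of Gm29114. The shared bases are exactly exon block 9 of the 10 of Ikzf2, all of it coding, and fall inside exon 3 of the 4 exons of Gm29114. The Gm29114 exon is shown because it is the only exonic contact between these genes. It is given 5′ to 3′ on the plus strand (chr1:69542199-69542430, GRCm38, from GENCODE M21 transcripts), with the bases shared with Ikzf2 in capitals. The same bases follow on the minus strand as Ikzf2 reads them (chr1:69542217-69542380), with the Ikzf2 exon in capitals and 10 intron bases on each side in lower case.

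Gm29114 exon 3: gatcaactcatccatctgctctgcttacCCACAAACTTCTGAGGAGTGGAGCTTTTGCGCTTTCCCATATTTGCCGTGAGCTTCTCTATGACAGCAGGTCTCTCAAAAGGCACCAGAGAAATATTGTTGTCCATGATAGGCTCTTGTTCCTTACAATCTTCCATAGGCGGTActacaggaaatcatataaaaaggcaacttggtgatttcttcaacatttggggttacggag
Ikzf2 exon: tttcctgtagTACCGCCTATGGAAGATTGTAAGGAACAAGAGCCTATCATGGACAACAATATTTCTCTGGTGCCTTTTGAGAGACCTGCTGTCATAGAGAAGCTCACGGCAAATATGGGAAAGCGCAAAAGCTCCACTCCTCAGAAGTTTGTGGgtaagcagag

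The Gm29114 exon reaches 28 bases past the Ikzf2 exon on one side and 60 on the other. On the Ikzf2 strand the exon is preceded by AG and followed by GT, the usual bases at the ends of an intron, so the antisense exon covers the Ikzf2 exon together with both of its splice sites. The 2 loci thus overlap in different ways, Foxp3 by its noncoding 3′ end and Ikzf2 by an internal coding exon.

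**Figure D1:**
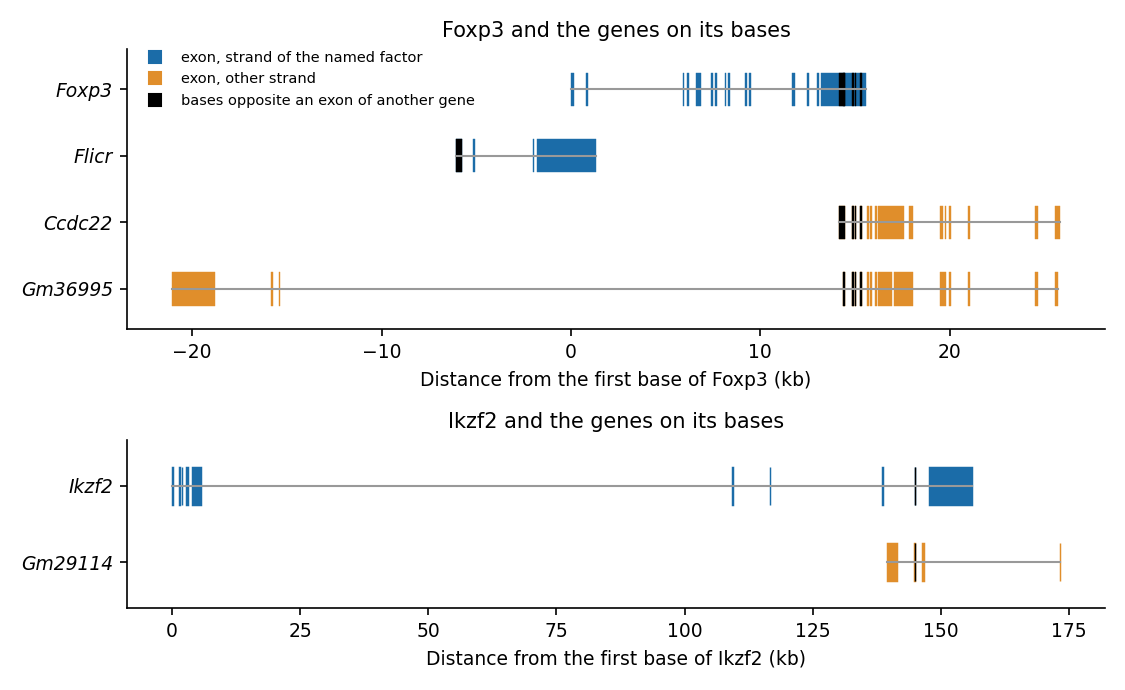
Exons of Foxp3 and Ikzf2 and of the genes on their bases, drawn as boxes along the distance in kb from the first base of Foxp3 (top) or Ikzf2 (bottom), in the direction in which that factor is read. Blue boxes are on the strand of the factor, orange boxes on the other strand, and black boxes are bases opposite an exon of another gene: 590 bases at the end of Foxp3 and 144 bases in 1 exon of Ikzf2 (narrow exons are drawn with a thin outline).

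Foxp3, the master regulator of regulatory T cells, had a high own-strand count in every Th2 library. It had 667, 591, 416 and 411 counts in replicates 1 to 4, which are 374.6, 318.2, 287.7 and 322.5 CPM. Replicate 1 was highest and replicate 3 lowest by CPM, and the highest was 1.30 times the lowest. The mean was 326 ± 36.1 CPM (SD, n = 4), and the summed count of 2085 has an exact Poisson interval of 1996 to 2176 (95%). Per length, Foxp3 had 143, 112, 104 and 127 transcripts per 1000000 (TPM), with a mean of 121 ± 17.3 TPM (SD, n = 4). That mean was above those of 86.5% of the 7752 genes whose counts averaged 10 or more. The median over these genes was 10.2 TPM. TPM depends on what the total is taken over: rescaled over nuclear genes with no opposite exon, the mean of Foxp3 was 1461, and that of Gm29114 35.0. Both genes have an opposite exon and lie outside that total, so these values are not shares of it. In these bulk samples, the share of cells with the counted RNA and its amount per cell cannot be told apart. Which strand that RNA came from was not tested.

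Ccdc22, the endosomal recycling gene, had 0 counts in all 4 libraries. Its own-strand count was read against its neighbour on the same strand: 2957 of its 3427 exon bases (86.3%) are also exon bases of Gm36995. The headers show featureCounts without an option for fragments that fit several genes, so such fragments go to neither gene. Of the 470 bases that belong to Ccdc22 alone on its strand, 217 lie opposite Foxp3 and 253 do not. Gm36995, with 93.8% of its exon bases shared on its strand with Ccdc22 or Ppp1r3f, also had 0 counts in all 4 libraries. Among all protein-coding genes with at least 80% of their exon bases shared on the same strand, 175 of 189 (92.6%) had no count, against 8962 of 20262 (44.2%) of those with none shared, a comparison chosen after the values were seen. The part of this sharing in the count of Ccdc22 was not tested.

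Ikzf2, the Helios gene, also had 0 counts in all 4 libraries. Unlike Ccdc22, it shares 0 exon bases with a gene on its own strand, so none of its 11613 exon bases is ambiguous there. On the other strand, Gm29114 had 3, 9, 13 and 2 counts, or 1.68, 4.85, 8.99 and 1.57 CPM. Replicates 2 and 3 were the higher and replicates 1 and 4 the lower, the reverse of the order of genes with no opposite exon. Gm29114 averaged 4.27 ± 3.49 CPM and 2.47 ± 1.96 TPM (SD, n = 4), and without replicate 3 its mean was 1.58 TPM. Its summed count of 27 has an exact Poisson interval of 17.8 to 39.3. The highest CPM was 5.73 times the lowest. An own-strand count of 0 was common, since 33988 of the 50600 genes (67.2%) had no count in any library, and it does not show that Ikzf2 RNA was absent.

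**Figure D2:**
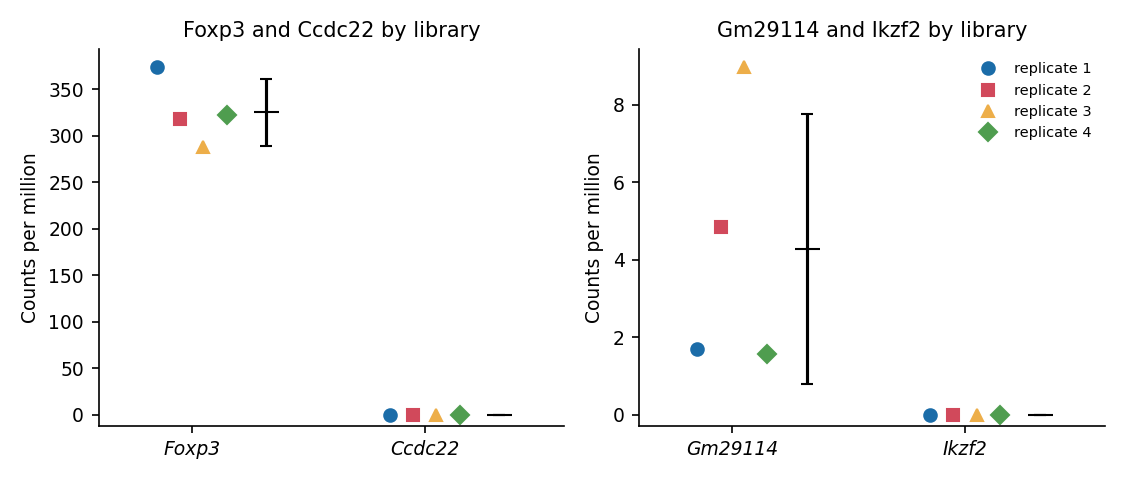
CPM of Foxp3 and Ccdc22 (left) and of Gm29114 and Ikzf2 (right, on its own axis) in the 4 Th2 libraries; symbols are single libraries and the bar beside them is the mean ± SD. Foxp3 lies between 287.7 and 374.6 CPM, Gm29114 between 1.57 and 8.99 CPM, and Ccdc22 and Ikzf2 are at 0 in every library.

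In each pair the counts were on 1 of the 2 genes, the factor itself for Foxp3 and Ccdc22, and the gene opposite the factor for Ikzf2 and Gm29114. For Ccdc22 this covers only the bases that can be counted. The comparison was made within each library as the log2 ratio of (count + 1) per kb of exon. Foxp3 exceeded Ccdc22 by 9.16, 8.99, 8.48 and 8.47 in replicates 1 to 4, a mean of 8.78 ± 0.35 (SD, n = 4). Gm29114 exceeded Ikzf2 by 4.21, 5.53, 6.02 and 3.80, a mean of 4.89 ± 1.06. Foxp3 exceeded Ikzf2 by 10.93, 10.75, 10.25 and 10.23, a mean of 10.54 ± 0.35. Each ratio was above 0 in all 4 libraries. The exact sign-flip permutation test (two-sided) gave p = 0.13 for each, the smallest that 4 libraries allow. The second gene of each pair had no count, so these signs were not free to vary, and the SDs come from the first gene alone.

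Set against a floor of 3 counts over the group for Ikzf2, Gm29114 was 41.7-fold above that floor per kb, and Foxp3 2023-fold. These folds use the point count of the first gene, so they leave out its counting error. For the 27 counts of Gm29114 that error is wide, with an interval of 17.8 to 39.3. For Ccdc22 the floor was taken over the 470 bases that it alone holds on its strand, since fragments on its other bases go to no gene. Per kb of such bases, a length chosen after the data were seen, Foxp3 was 87.8-fold above the floor of Ccdc22, and the log2 ratio was 6.01 in place of 8.78. Nothing is known from these counts of the other 2957 bases of Ccdc22. Whether the fragments counted for Foxp3 came from Foxp3 RNA or from RNA of the Ccdc22 strand was not tested.

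The same comparison was made for the related genes that have an exon opposite another gene. In the FOXP family, none of Foxp1, Foxp2 and Foxp4 has an opposite exon. In the Ikaros family, Ikzf5 shares exon bases with Pstk, a tRNA kinase gene, and had 6.29 counts per kb against 86.2 for Pstk. Ikzf4, the Eos gene that acts with Foxp3 as a corepressor, had 0.838 counts per kb against 3.25 for the noncoding Gm26876, which was denser in 3 of 4 libraries.

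Among genes of regulatory T cell surface and effector proteins, 2 of 20 had an opposite exon, and in both the gene on the other strand was denser in 4 of 4 libraries. Tnfrsf18, which encodes the receptor GITR, had 130.4 counts per kb against 10022 for Gm16008, and Ebi3, a subunit of the cytokine IL-35, 8.33 against 1032 for Gm16712. Among 22 factors that act upstream of or with Foxp3, 11 had an opposite exon, and in 9 the opposite gene was denser in 4 of 4 libraries. Over all 4160 protein-coding genes with an opposite exon and a count in either gene of the pair, the opposite gene was denser in 4 of 4 libraries for 51.2% and the gene itself for 23.9%. The 9 genes were Bach2 (Bach2os), Runx1 (Gm26626), Foxo1 (Gm20402), Stat5a (Stat3), Hdac7 (Slc48a1), Kat5 (Rnaseh2c), Ezh2 (Gm26625), Hif1a (Gm15283) and Gata3 (Gm13256). The other 2 were Ikzf4 and Satb1, whose partner Gm6934 was denser in 2 of 4 libraries. In the Foxp3 pair the factor was the denser gene and in the Ikzf2 pair, with Ikzf2 at 0 counts, the opposite gene was. Both directions are common among such pairs.

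Ccdc22 was set beside the other subunits of its complex in the same way. Of 14 further CCC and retriever genes, 4 had an opposite exon. In 3 of them, Commd1 (Zrsr1), Vps35l (Knop1) and Vps29 (Fam216a), the complex gene was the denser in 4 of 4 libraries, and in Ccdc93 the opposite gene Gm15392 was. Ccdc22, at 0 against 130.7 counts per kb for Foxp3, and Ccdc93, at 0.524 against 77.1 for Gm15392, were each the less dense gene. These pairs differ in layout. Ccdc93 has 12 of its 11445 exon bases opposite Gm15392 and shares 0 on its own strand. Ccdc22 has 590 of its 3427 opposite Foxp3, and only 470 belong to it alone on its strand. In the WASH complex, which works beside CCC, Washc2 had 2.81 counts per kb against 131 for Gm44103.

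**Figure D3:**
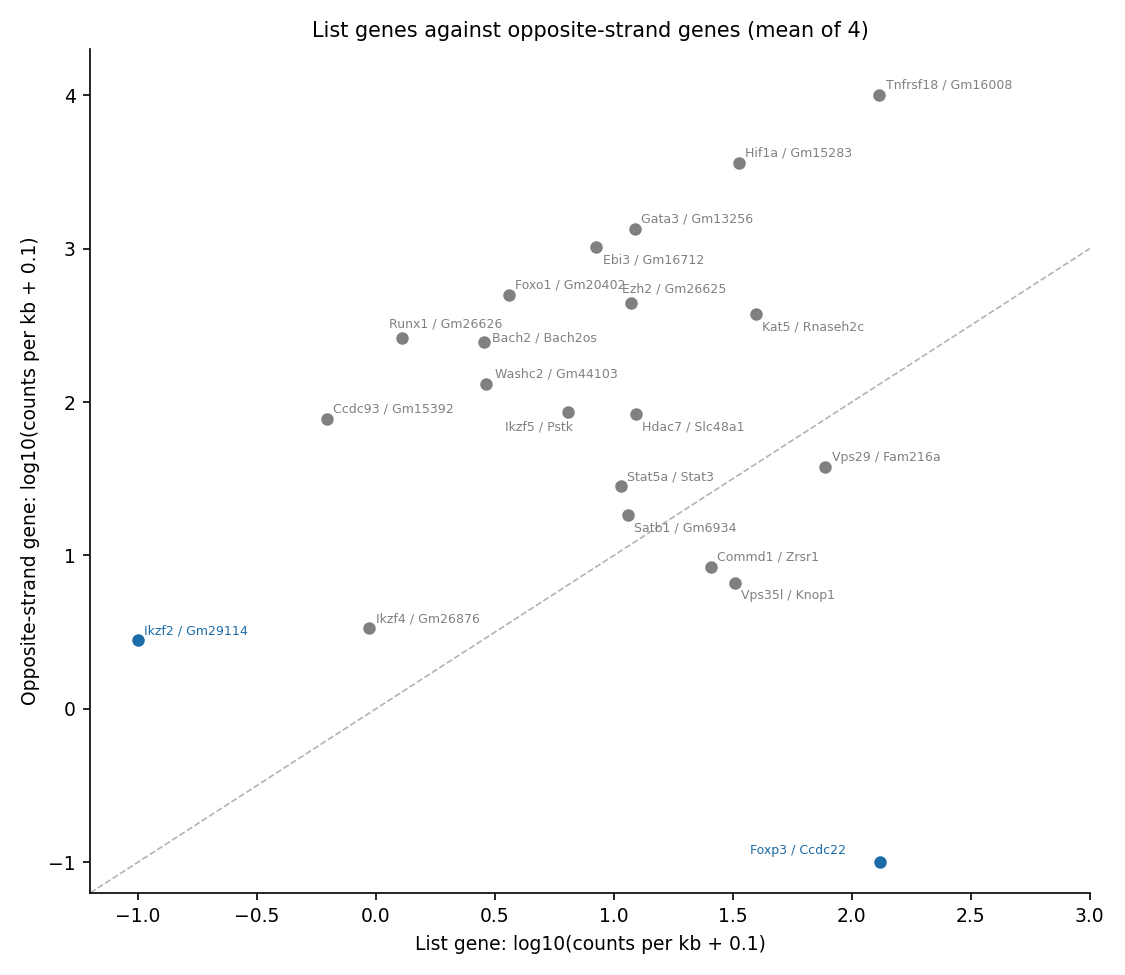
Mean counts per kb over the 4 libraries of genes of the FOXP, Ikaros, regulatory T cell, upstream factor, CCC and WASH lists (x axis) and of the gene opposite each (y axis), as log10 of counts per kb + 0.1. The dashed line marks equal density; Foxp3 lies below it and Ikzf2 above it (blue), and the grey list genes below it are Commd1, Vps35l and Vps29.

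The other genes at the 2 loci had few counts. Flicr, a noncoding RNA that overlaps the start of Foxp3 on the same strand and is known to modulate Foxp3, had 23, 40, 27 and 22 counts. It shares 267 exon bases with Foxp3, 6.69% of the exon bases of Foxp3. Ppp1r3f, upstream of Foxp3 on the other strand, had 6, 2, 1 and 0 counts, and Gm23082 beyond it had 0. On the Ccdc22 side, the calcium channel gene Cacna1f was at 0 except for 2 counts in replicate 4. The synaptic vesicle gene Syp had 1, 2, 9 and 0. Foxp3 held nearly all of the counts among the genes named here at its locus, as far as these genes could be counted. On the other strand, Ccdc22, Gm36995 and Ppp1r3f share 86.3%, 93.8% and 46.9% of their exon bases with a gene on their own strand. Fragments that fit both genes there go to neither. At the Ikzf2 locus, Gm29112 and Gm28112, which lie within the span of Ikzf2, and the flanking Gm29113, Gm28497, Gm37930 and Spag16 had 0 counts in all 4 libraries. Gm29114 was the only gene named here at that locus with any count.

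Foxp3 varied little between the replicates. Of the 4 members, Foxp3 alone reached a mean of 10 counts. In a chi-square test of its counts against Poisson sampling, with library sizes scaled by TMM (edgeR's trimmed mean of M values), the statistic was 26.2 with 3 degrees of freedom and a Benjamini-Hochberg adjusted p = 1.56e-05. By that test 88.2% of the 7752 genes varied beyond sampling, so the call places Foxp3 with most genes. Without replicate 4 the statistic was 3.72 and the adjusted p 0.183. Gm29114, tested by chi-square in the fit without the count minimum, had an adjusted p of 0.00151, on at most 13 counts in a library. That fit left out only the 33988 of 50600 genes with no count, and 11679 genes varied beyond sampling in it. Such a call was therefore common there too.

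Each library was then compared with the other 3 by edgeR's quasi-likelihood test. The log2 fold change of Foxp3 was 0.11, 0.27, -0.08 and -0.33 for replicates 1 to 4, with Benjamini-Hochberg adjusted p = 0.999, 0.954, 0.990 and 0.755. Of all genes tested, 0%, 0.0129%, 0.0387% and 0% were called in the 4 comparisons, and Foxp3 was called in none. The edgeR calls were 0, 1, 3 and 0 genes, those at an unadjusted p under 0.05 were 33, 216, 726 and 683, and DESeq2 called 0, 1, 0 and 0. The order of the libraries depended on the scaling: by CPM Foxp3 was highest in replicate 1, and by TMM-scaled counts highest in replicate 2 and lowest in replicate 4. For replicate 3 the sign changed with DESeq2's size factors, to 0.02 on the log2 scale. For Gm29114, in the edgeR fit without the count minimum, the log2 fold change was -1.81, 0.54, 1.71 and -2.10 for replicates 1 to 4.

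The SD of log2(CPM + 0.5) over the 4 libraries was 0.157 for Foxp3, against a median of 0.776 for all genes tested. Among the 3925 genes with an opposite exon, the median was 0.438 and 10.2% had a smaller SD than Foxp3. Among the 3827 genes without one, the median was 1.10 and 0.523% had a smaller SD. Low counts widen such SDs, so the comparison was repeated over genes averaging 100 counts or more, a limit chosen after the values were seen. There 21.8% of 1649 genes with an opposite exon, and 2.17% of 322 genes without one, had a smaller SD than Foxp3. The evenness of Foxp3 over libraries was thus within the range of genes that have an opposite exon, and at the low edge for genes without one.

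Foxp3 deviated from its 4-library mean by 0.21, -0.03, -0.17 and -0.01 on the log2 CPM scale. All 15 regulatory T cell surface and effector genes tested had a wider SD than Foxp3, as did 94.6% of all genes tested and 99.5% of those without an opposite exon, so this count is near the background. The 14 of them without an opposite exon had median deviations of 0.38, -0.37, -0.25 and 0.49. All genes without an opposite exon had medians of 0.58, -0.62, -0.64 and 0.95, high in replicates 1 and 4 and low in replicates 2 and 3. Tnfrsf18, the 1 gene of the 15 with an opposite exon, had the SD nearest to that of Foxp3, at 0.175.

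**Figure D4:**
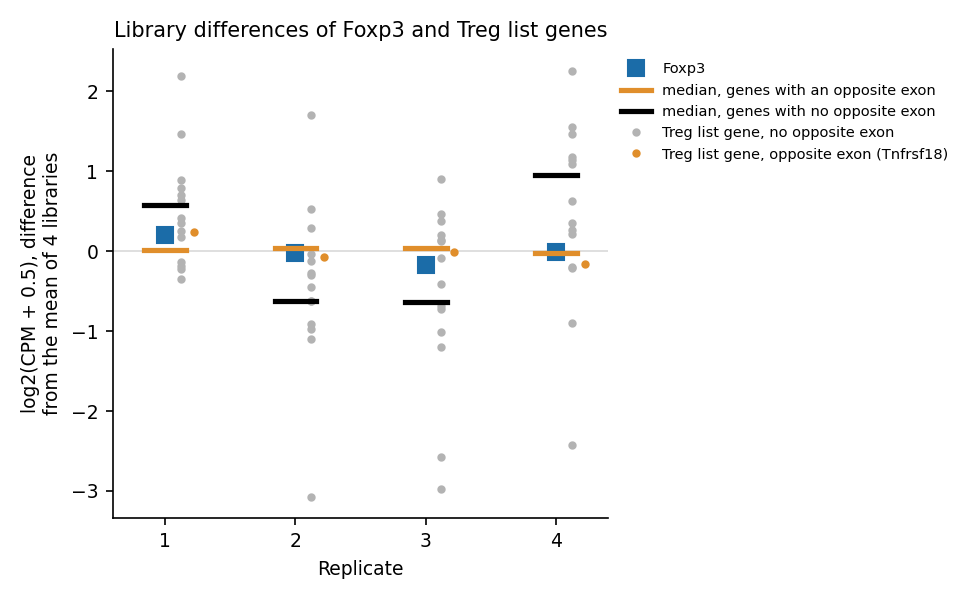
Deviation of each library's log2(CPM + 0.5) from the mean of the 4 libraries (y axis) by replicate (x axis), for Foxp3 (blue squares), 15 regulatory T cell genes (small points to the right of each replicate), and the medians of all tested genes with (orange lines) and without (black lines) an opposite exon. Foxp3 stays between -0.17 and 0.21, while the median of genes without an opposite exon moves from -0.64 to 0.95.

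The genes nearest to a member in their deviations over the 4 libraries were found by the root mean square difference of log2 CPM. For Foxp3 they were Ncaph2 (0.012), Gm45235 (0.023) and Ppt1 (0.028), and 65 of 7734 genes lay within 0.1. Ncaph2, a condensin subunit gene with 523, 472, 330 and 322 counts, lies opposite Sco2 and Tymp. Ppt1, a lysosomal thioesterase gene, lies opposite Cap1, and Gm45235 has no opposite exon. For Gm29114 the nearest were Mir328 (0.118), Zbtb20 (0.133) and B230319C09Rik (0.180), and 0 of 7735 genes lay within 0.1. With 4 libraries this is a description of likeness only. Ccdc22 and Ikzf2, at 0 throughout, have no such pattern.

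In order of mean TPM on their own strands, Foxp3 stood second among the 29 genes of the FOXP, Ikaros and regulatory T cell lists. Il2ra, which encodes CD25 and is also carried by activated T cells, was above it at 144 ± 105 TPM (SD, n = 4). Tnfrsf18 followed at 121 ± 17.0 TPM and Ctla4, an inhibitory receptor of activated and regulatory T cells, at 89.1 ± 77.0 TPM. Foxp3 was above Tnfrsf18 in 2 of 4 libraries and below Il2ra in 2 of 4, so these neighbours in the order did not differ beyond their spread. The ranges of every pair of neighbours in this order overlapped. At the lower end, Ikzf2, Foxp2 and Klrg1, a receptor of terminally differentiated cells, had 0 counts.

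The relatives of Foxp3 and Ikzf2 were far lower than Foxp3 in own-strand TPM. Of these relatives, only Ikzf4 and Ikzf5 have an exon opposite another gene, as Foxp3 does. The part of opposite exons in this difference was not tested. Foxp4 had 32, 4, 18 and 21 counts and 3.76 ± 2.26 TPM, Foxp1, which keeps T cells quiescent, had 10, 8, 26 and 22 counts and 1.23 ± 0.809 TPM, and Foxp2 had none. In the Ikaros family, Ikzf1, the founding member in lymphocyte development, had 122, 24, 29 and 88 counts and 11.2 ± 8.32 TPM. Ikzf1 was thus high in replicates 1 and 4. Ikzf5 had 38, 54, 25 and 27 counts and 5.75 ± 1.15 TPM. Ikzf4 had 1, 3, 4 and 4 counts, and Ikzf3, the Aiolos gene, 8, 6, 3 and 11. All of the other 4 Ikaros genes had counts, and only Ikzf2 of the family had none.

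As groups, 19 of the 20 regulatory T cell surface and effector genes had a count, with a median of 8.76 TPM, and 12 of the 15 tested varied beyond Poisson sampling. Of the 22 upstream factors and partners, 21 had a count and 19 of 20 tested varied. Irf4, a factor of activated and effector T cells, led that list at 157 ± 27.0 TPM, followed by Kat5, the acetyltransferase TIP60 that acts on Foxp3, at 36.8 ± 6.23 and Hif1a at 33.7 ± 26.6. Prdm1, the Blimp-1 gene, had 0 counts. These shares lie around the 88.2% of all tested genes.

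All of the 14 further CCC and retriever genes had a count, with a median of 2.14 TPM, while Ccdc22 had none. Vps29 was highest at 72.9 ± 10.5 TPM, followed by Vps35l at 30.4 ± 4.71 and Commd1 at 23.7 ± 3.48, each opposite another gene, and Commd9 was lowest at 0.133 ± 0.267. The 4 genes of this list that were tested all varied. The 5 WASH genes, led by Washc5 at 4.04 ± 2.89 TPM, Washc2 at 2.86 ± 2.71 and Washc3 at 2.10 ± 0.939, with Washc4 lowest at 0.914 ± 0.746, all had counts, and 2 of the 3 tested varied. Ccdc22 was the only gene of its complex list with no own-strand count. The other 14 genes of the CCC and retriever list share at most 4.95% of their exon bases with a gene on their own strand, against the 86.3% of Ccdc22. Neither the part of this sharing nor that of the strand setting in the 0 of Ccdc22 was tested.

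**Figure D5:**
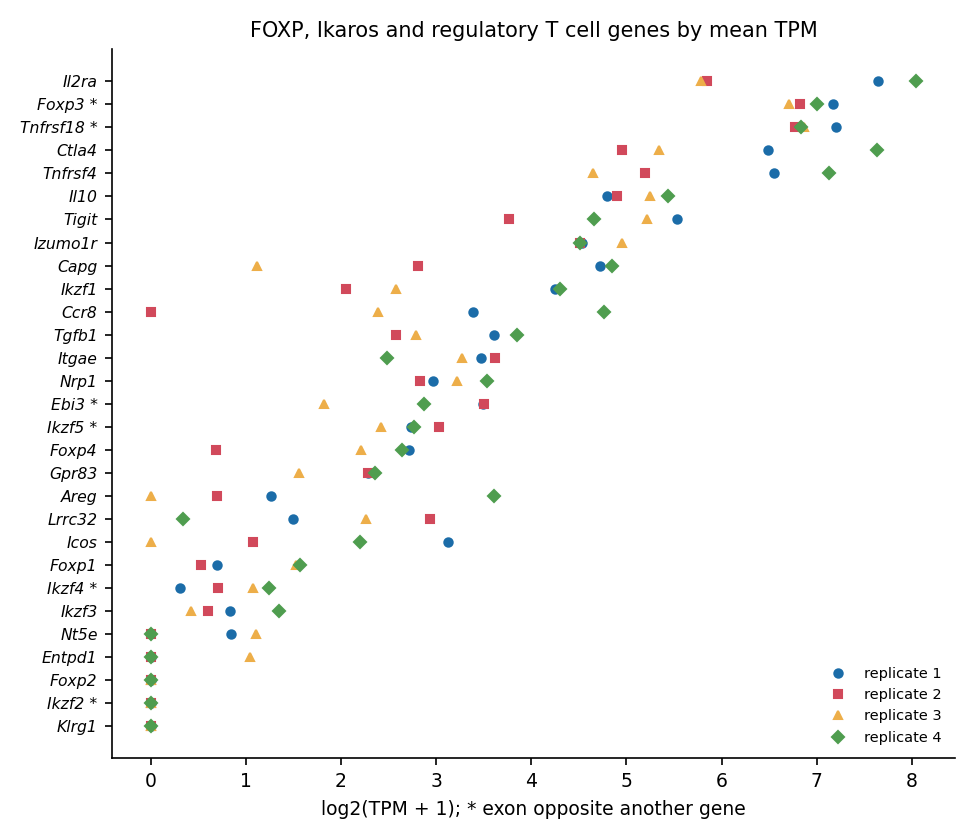
log2(TPM + 1) of the FOXP, Ikaros and regulatory T cell genes in each of the 4 libraries (x axis), ordered by mean TPM from top to bottom; symbols are single libraries and a star marks genes with an exon opposite another gene. Foxp3 and Tnfrsf18 are near the top with tightly grouped libraries, Il2ra and Ctla4 are spread with replicates 1 and 4 to the right, and Ikzf2 is at 0.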

How the data were processed

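RNA-seq gene counts of 4 Th2 libraries were used. The deposited values are raw fragment counts per gene. Per the file headers, they were made with featureCounts 1.4.6-p4 on STAR alignments (version not given in the sources used here), over exons, with both ends required and strand option 1, on GENCODE M13 and mm10. Per the labels, the assay is total RNA-seq, although the library protocol they point to carries poly(A) RNA in its name.

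Symbols came from GENCODE M21, which named 50376 of 50600 identifiers. Exon overlap was computed from the starts and ends in the files, and any shared base counted. CPM, counts per kb and TPM were computed from the deposited counts and exon lengths. Coding bases and sequences came from GENCODE M21 (GRCm38).

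Ratios within libraries used a pseudocount of 1 count and an exact two-sided sign-flip test. Spread was tested over the 7752 genes whose counts averaged 10 or more, by chi-square against Poisson sampling (sizes scaled by TMM) and by edgeR 4.0.16 (R 4.3.3). P-values were adjusted by Benjamini-Hochberg, with a threshold of 0.05. DESeq2 1.42.0 served as the alternative, Python 3.11.15 for the rest, and the tests were tried on simulated counts. The total count per library limits precision, and intervals cover counting error only.

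The members and gene lists were chosen with earlier results of these data known. Named genes were the members and every gene opposite one, the 2 nearest genes on each side and those overlapping the locus, the whole FOXP and Ikaros families, of each other list the 3 highest, the lowest and those with an opposite exon, and the 3 genes nearest in pattern. Alternatives were another pseudocount, other lengths, scalings and filters, and leaving out each library.

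The values of some list genes are not reported here.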

Additional observations from a re-analysis of the deposited data

Results flagged for a closer look

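Among 59 named genes, 5 had 1 library whose TPM lay far from the other 3, measured as the gap to the nearest library over the range of the 4. For normally distributed values chance gives about 1 such group in 20, a rate that does not hold for counts near 0, as in Cacna1f and Syp. None of the 5 is a member, and Ccdc22 and Ikzf2, at 0 in every library, could not be flagged. At the Foxp3 locus, Cacna1f had 0.271 TPM in replicate 4 and 0 in the others, and Syp had 1.71 TPM in replicate 3, with 0.291 in the nearest library and 0 in the lowest. Vps35l, of the complex of Ccdc22, had 37.4 TPM in replicate 4 against 27.1 to 28.7 in the others, and its opposite gene Knop1 had 8.81 TPM in replicate 4 against 5.23 to 5.57. Gm15283, opposite Hif1a, had 2870 TPM in replicate 1, below the 3526 to 3650 of the others.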

How the results depend on the processing

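The 3 ratios between members kept their direction under each alternative run. With a pseudocount of 0.1 they were 12.10 (Foxp3 to Ccdc22), 7.93 (Gm29114 to Ikzf2) and 13.86 (Foxp3 to Ikzf2) on the log2 scale, and as raw counts 9.00, 2.68 and 9.00. Without bases opposite an exon of the other strand they were 8.74, 4.96 and 10.75. Leaving out each library gave 8.65 to 8.88, 4.51 to 5.25 and 10.41 to 10.64. With the genes at 0, their sign could not change.

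The mean of Foxp3 was 81.7 FPKM, and it was 1461 when rescaled over nuclear genes with no opposite exon, a total that leaves Foxp3 out. That of Gm29114, also outside this total, was 35.0 when rescaled. The difference of Foxp3 in replicate 3 from the other libraries turned from -0.08 to 0.0151 with DESeq2's size factors in edgeR and to 0.0151 in DESeq2's own test; the cause was not tested. Without a count minimum 11679 genes varied beyond Poisson sampling, because more genes were tested, and with total counts as library sizes 6775 did. Leaving out each library gave 5573 to 6589. The edgeR calls rose to 3 genes for replicate 2 and to 3 for replicate 4 without a minimum, and to 3 for each with DESeq2's size factors. DESeq2's test called 0 genes for replicate 3. A minimum of 50 shared bases kept each gene opposite a member.

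No paired analysis was possible because the study has 1 group, so no replicate number is shared between groups. Own-strand counts of 0 for Ikzf2 and of 27 for Gm29114 are near the limit of depth. The 0 of Ccdc22 also covers only the bases that it alone holds on its strand. The order of Gm29114 over libraries rests on at most 13 counts in each, and Ccdc22 and Ikzf2 have no order.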
